A study of Rattus norvegicus with 6 samples.

Results

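The respiratory chain of rat cells was described from transcripts of both genomes that encode it. Members were taken by gene symbol: every symbol that begins with Nduf, Uqcr or Atp5, or with Cox followed by a digit from 4 to 8, together with Sdha, Sdhb, Sdhc, Sdhd, Cyc1 and Cycs. The 13 protein-coding genes of mitochondrial DNA, which the files list in capitals, completed the set. This gave 109 of 31011 gene rows, of which 96 are nuclear and 13 mitochondrial. A count filter applied to all genes kept 87 nuclear and all 13 mitochondrial members, so that 100 were tested.

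The cells are labelled myocardial and NRVM, a name the labels do not spell out, and the growth text gives the myocardium of rat embryos as their origin. A group of 3 libraries received an siRNA against eIF3m, a subunit of translation initiation factor 3, and a group of 3 libraries received a control siRNA. The sources used here give no strain or age, and the treatment labels name no other agent. All 6 were grown in DMEM with 10% serum, and a text on a differentiation medium in the protocol field does not say whether it was applied to them. Nothing in the labels says whether libraries of a group came from separate cultures; the p-values reflect the spread among these libraries alone, and that spread may be technical.

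The respiratory chain sits in the inner mitochondrial membrane. Complex I takes electrons from NADH and complex II takes them from succinate. Ubiquinone carries them to complex III, cytochrome c carries them to complex IV, and complex IV passes them to oxygen. Complexes I, III and IV pump protons, and complex V, the ATP synthase, makes ATP as the protons return. Mitochondrial DNA encodes hydrophobic subunits of complexes I, III, IV and V, while complex II, cytochrome c and most other subunits are nuclear gene products. Mitochondrial mRNAs are cut from long transcripts of a whole strand, whereas each nuclear subunit gene has a promoter of its own. Heart muscle is among the tissues richest in these complexes.

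Eif3m mRNA was at 91.7, 83.9 and 87.3 CPM in eIF3m siRNA replicates 1, 2 and 3, against 137, 136 and 141 CPM in control siRNA replicates 1, 2 and 3. CPM, the gene's count set against a fixed library total, is given after TMM scaling, a correction that centres most genes on no change. The groups did not overlap, and Eif3m fell by 0.64 on the log2 scale (SE 0.05, edgeR quasi-likelihood test, Benjamini-Hochberg adjusted p = 1.41e-07). Total counts were 10061575, 2156186 and 7901395 in eIF3m replicates 1, 2 and 3 and 7437285 to 8603602 in the control libraries, so eIF3m replicate 2 was the shallowest. The 12 cardiomyocyte markers summed to 149 to 165 CPM in eIF3m libraries, against 389 to 402 CPM in control libraries. Only Tnnt2 and Pln among them passed the count filter, and both were lower with eIF3m siRNA. Most of the sum was Tnnt2, at 142 to 158 CPM in eIF3m libraries and 359 to 376 CPM in control libraries. The other 10 reached at most 2.43 CPM, and Myl3 was at 0 in all 6. Fibroblast markers summed to 16513 to 17290.5 CPM in eIF3m libraries and 15156 to 15648 CPM in control libraries. Most of that sum was Col1a1, at 13028 to 13338 CPM in eIF3m libraries and 11914 to 12082 CPM in control libraries. Of the 7 fibroblast markers tested, 5 were called higher and 1, Thy1, was called lower (-0.55), beside 17.4% and 21.2% of all genes. Skeletal myoblast markers summed to 30.9 to 38.0 CPM in eIF3m libraries and 57.1 to 62.5 CPM in control libraries. Of the 5 tested, 4 were called lower, beside 21.2% of all genes. Myod1 was not called, with a mean of 15.9 CPM in both groups. eIF3m replicate 1 stood apart: its 5 erythroid markers summed to 6202 CPM, against 229 and 50.9 CPM in eIF3m replicates 2 and 3 and 31.5 to 77.1 CPM in controls. Its endothelial markers summed to 43.7 CPM, against 4.80 to 8.83 CPM in the other eIF3m libraries and 1.91 to 3.25 CPM in controls. The fibroblast markers Dcn, Lum and Pdgfra were at 55.4, 10.3 and 8.77 CPM in it, against at most 2.21, 3.97 and 1.44 CPM in any other library. Postn, at 443 CPM in it, was not above eIF3m replicates 2 and 3 (477 and 485 CPM). Leukocyte markers summed to 48.5 CPM in eIF3m replicate 1, to 20.8 and 22.8 CPM in the other eIF3m libraries and to 28.7 to 31.3 CPM in controls. Outside eIF3m replicate 1 most of this sum was Cd14, at 18.1 to 20.1 CPM in eIF3m libraries and 25.3 to 29.0 CPM in controls. Ptprc and Lyz2 were at 7.15 and 14.1 CPM in eIF3m replicate 1, against at most 0.142 and 0.566 CPM in any other library. The part of these cell type differences in the results was not tested. Counts without eIF3m replicate 1 are given for both genomes and for each nuclear set. They are not given for the lists of related genes.

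Over the whole transcriptome 2220 of 12724 tested genes were higher in eIF3m siRNA cells (17.4%) and 2700 were lower (21.2%) at an adjusted p under 0.05. Nuclear respiratory genes had 5 of 87 tested members higher (5.75%), a smaller share than among all genes, and 17 lower (19.5%), a share close to that of all genes; the other 65 did not pass. Their median log2 fold change was -0.06, beside 0.01 for all genes, and their median size of change without regard to sign was 0.120, beside 0.241 for all genes. Among the 13 mitochondrial genes 5 were higher (38.5%) and 3 lower (23.1%), with a median of 0.04 and a median size of 0.107. Groups without overlap were common: by TMM-scaled CPM the eIF3m libraries all lay above the controls in 2960 of the 12724 tested genes and all below in 3219. Among nuclear members these counts were 7 and 24 of 87, and among mitochondrial members 4 and 2 of 13. A lack of overlap in a single gene, as given below, is to be read beside those counts. In bulk RNA, fewer cells of a type and less RNA per cell cannot be told apart. Without eIF3m replicate 1 the nuclear genes had 3 higher and 17 lower, and the mitochondrial genes 6 and 2. All genes then had 1936 higher and 2463 lower. Core subunits of complex I had 0 higher and 1 lower of 7, and its other subunits 2 and 4 of 29. The median of those other subunits was -0.14, against -0.04 with all libraries. Complex III had 0 higher and 3 lower of 9, complex IV 0 and 6 of 13, and complex V 1 and 3 of 17. Complex II, cytochrome c and the complex I assembly factors had no calls.

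The scaling set where these counts fell relative to 0. With total counts alone and no TMM factors, the median of all genes shifted by 0.14 on the log2 scale. The nuclear genes then had 24 higher and 5 lower, the mitochondrial genes 9 higher and 1 lower, and all genes 4126 higher and 1684 lower. With upper-quartile scaling, which shifted that median by 0.07, the counts were 7 higher and 6 lower for the nuclear genes, 7 higher and 1 lower for the mitochondrial genes, and 3015 higher and 2130 lower for all genes. Of the 17 nuclear genes called lower, Cox4i1, Cox6a1, Cox6a2, Cox7a2 and Atp5g1 kept the call under both of these scalings, Uqcrfs1 kept it under upper-quartile scaling, and the other 11 lost it under both. The 5 nuclear genes called higher kept their calls under both. On counts thinned to the smallest library the nuclear genes had 3 higher and 4 lower, beside 1356 and 1774 of 10667 genes. Those still lower were Cox4i1, Cox6a1, Cox6a2 and Atp5g1. With DESeq2 in place of edgeR the calls of Ndufs8, Ndufc1, Atp5j2, Ndufa11, Atp5j, ND4 and COX3 were lost. Ratios within a library, which no scaling moves, are given where they exist.

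**Figure D1:**
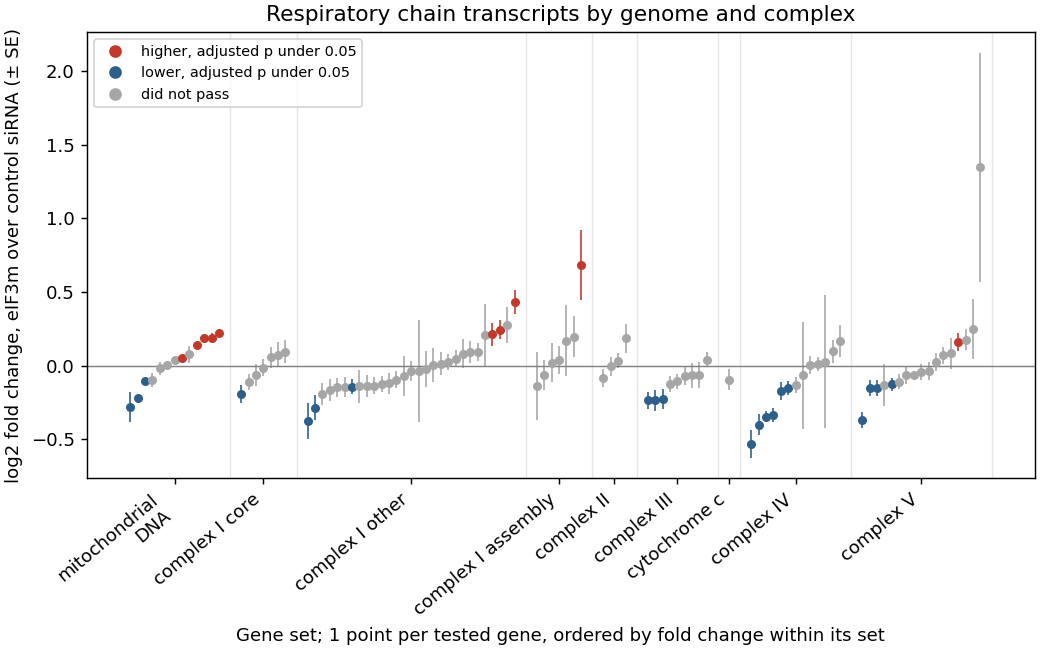
Log2 fold change, eIF3m siRNA over control siRNA, of the 100 tested respiratory chain genes, grouped by genome and complex and ordered within each set; bars are the SE of the fit, and red and blue points passed an adjusted p of 0.05. Complex IV holds 6 of the 17 nuclear genes that were lower, and the mitochondrial genes lie between -0.28 and 0.22; these values use TMM scaling, and total counts alone place all genes higher by 0.14.

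The summed level of the 13 mitochondrial genes was 68488, 67490 and 70196 CPM in eIF3m replicates 1, 2 and 3. It was 66174, 66365 and 69438 CPM in control replicates 1, 2 and 3. These groups overlapped. As a share of all counts, without TMM, mitochondrial transcripts took 7.15%, 7.10% and 7.42% in the eIF3m libraries, against 6.30%, 6.33% and 6.58% in the control libraries, where the groups did not overlap. The sum of the 96 nuclear members was 8056, 7956 and 7654 CPM with eIF3m siRNA, against 8481, 8388 and 8441 CPM with control siRNA, lower in all 3 eIF3m libraries. As a share of counts the nuclear order was the other way round, with 0.842%, 0.837% and 0.809% in eIF3m libraries and 0.808%, 0.800% and 0.800% in control libraries.

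The ratio of mitochondrial to nuclear summed counts does not depend on scaling. It was 8.50, 8.48 and 9.17 in eIF3m libraries, against 7.80, 7.91 and 8.23 in control libraries. Every eIF3m library was above every control library, and the means, 8.72 ± 0.39 and 7.98 ± 0.22 (SD, n = 3 each), differed by 9.25%. Leaving out eIF3m replicate 1 gave a log2 ratio of means of 0.15, against 0.13 with all libraries. The ratio summarises the members and is given with no p-value.

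**Figure D2:**
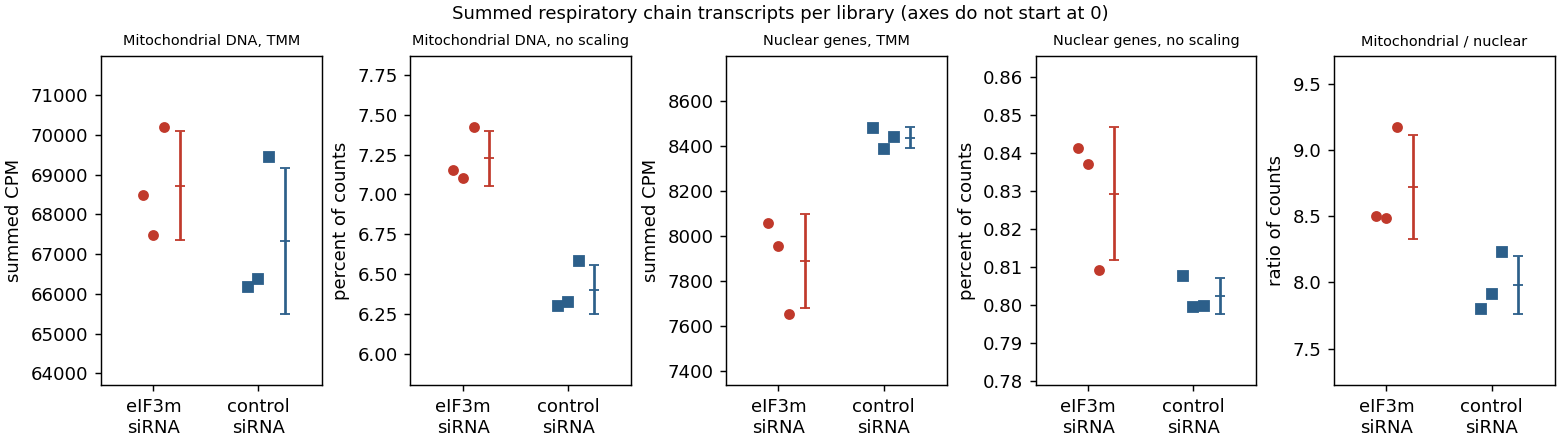
Summed levels per library for the 13 mitochondrial and 96 nuclear respiratory genes, as TMM-scaled CPM and as percent of all counts, and the ratio of their counts; points are libraries, and bars the mean and SD of 3. The nuclear sum is lower with eIF3m siRNA under TMM and higher as a percent of counts, while the mitochondrial to nuclear ratio is 8.48 to 9.17 in eIF3m libraries and 7.80 to 8.23 in control libraries.

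The 13 mitochondrial genes did not move as one. Along mitochondrial DNA, ND1 and ND2 are followed by COX1, COX2, ATP8, ATP6, COX3, ND3, ND4L, ND4, ND5 and CYTB, with ND6 on the opposite strand between ND5 and CYTB. The 3 genes at the far end, ND5, ND6 and CYTB, were higher in eIF3m siRNA cells, as was ND1 at the near end. COX2 and ATP6, which lie close together in the middle, were lower. Neighbours went other ways: ND4, next to ND5, was called lower (-0.28), and COX3, next after ATP6, was called higher (0.05). ATP8, between COX2 and ATP6, did not pass (-0.02, SE 0.05). ND4 kept its call in 8 and COX3 in 11 of 17 alternative settings of the processing. Whether the changes followed gene order was not tested.

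CYTB encodes cytochrome b, the only subunit of complex III made inside mitochondria. It was at 8506, 8299.7 and 8544 CPM in eIF3m replicates 1, 2 and 3, against 7317, 7297 and 7681 CPM in control replicates 1, 2 and 3, with no overlap. CYTB rose by 0.19 ± 0.02 (log2 fold change ± SE, adjusted p = 1.62e-07, edgeR), or 13.7%.

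ND5 encodes a proton-pumping subunit of complex I, and ND6 a small membrane subunit of the same complex. ND5 was at 2656, 2756 and 2835 CPM in eIF3m libraries, against 2289, 2359.7 and 2430 CPM in control libraries, and rose by 0.22 ± 0.02 (edgeR adjusted p = 2.15e-06). ND6 was at 885, 908 and 900.4 CPM with eIF3m siRNA, against 758, 791 and 815 CPM with control siRNA, and rose by 0.19 ± 0.03 (edgeR adjusted p = 1.65e-04). The groups overlapped for neither gene. The sources used here do not give the strand setting of the counting, so reads of ND6 and of the opposite strand at the same place may not have been told apart. ND1, a membrane subunit of complex I near the ubiquinone site, was at 3972, 3942 and 4151 CPM in eIF3m libraries, against 3639.8, 3594 and 3704 CPM in control libraries, and rose by 0.14 ± 0.02 (edgeR adjusted p = 7.85e-06).

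COX2 carries a copper centre of complex IV that receives electrons from cytochrome c. It was at 5892, 5601 and 5798 CPM in eIF3m libraries, against 6654, 6502 and 7007 CPM in control libraries. All 3 eIF3m libraries were below all 3 controls, and COX2 fell by 0.22 on the log2 scale (SE 0.02, edgeR adjusted p = 7.94e-07). ATP6, a subunit of the proton channel of ATP synthase, was at 6012, 5991 and 6315 CPM with eIF3m siRNA, against 6409, 6527 and 6790.1 CPM with control siRNA, a log2 fold change of -0.11 ± 0.02 (edgeR adjusted p = 4.27e-04). The ATP6 call was lost with upper-quartile scaling, and its sign turned with total counts alone (0.04). COX2 was lower and called in each of 17 alternative settings, and ND1, ND5, ND6 and CYTB were higher and called in each of the same 17.

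The other 7 mitochondrial genes had small or less certain differences. COX3, a core subunit of complex IV, was at 9621, 9153 and 9505 CPM in eIF3m libraries and 8979, 8952 and 9359.8 CPM in control libraries. It passed the test at 0.05 ± 0.02 (edgeR adjusted p = 0.0218), though its groups overlapped and the call was lost in 6 of the 17 alternatives, among them leaving out eIF3m replicate 1 or 3 or control replicate 1 or 2 (0.035 to 0.047). ND4, a proton-pumping subunit of complex I, was at 172, 213 and 254 CPM in eIF3m libraries and 254, 277 and 245 CPM in control libraries. The groups overlapped, and ND4 was lower at -0.28 ± 0.10 (edgeR adjusted p = 0.0393); the call was lost with upper-quartile scaling (-0.21), with total counts alone (-0.14), with DESeq2 and with robust dispersion. Leaving out any 1 library other than eIF3m replicate 3 ended it too, and the log2 fold change was -0.11 without eIF3m replicate 1 and -0.32 to -0.23 without one of the other 4. COX1, the catalytic subunit of complex IV, was at 24691 to 25600.4 CPM with eIF3m siRNA and 23996 to 25135 CPM with control siRNA, a log2 fold change of 0.04 ± 0.01 that did not pass (edgeR adjusted p = 0.0550). ND2, ND3, ND4L and ATP8 did not pass either, with log2 fold changes of 0.01, 0.08, -0.10 and -0.02. The reading frames of ND4L and ND4 and those of ATP8 and ATP6 overlap, and nuclear copies of mitochondrial DNA can share reads with all 13 genes, so single values of these genes are uncertain to the extent that the counting split such reads.

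**Figure D3:**
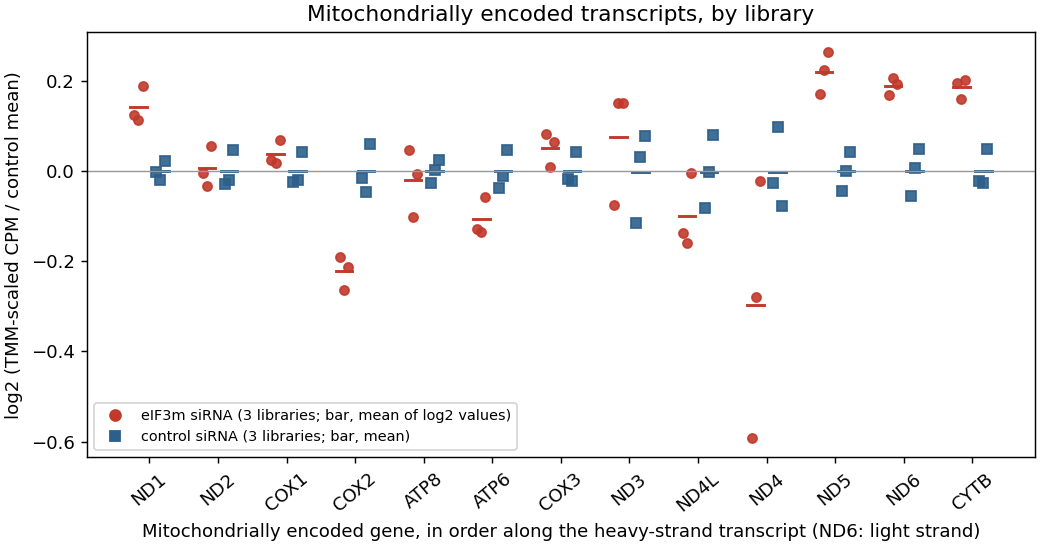
Log2 of the TMM-scaled CPM of each of the 13 mitochondrial genes over its control mean, for 3 eIF3m siRNA and 3 control siRNA libraries, in gene order along mitochondrial DNA; bars are means. ND1, ND5, ND6 and CYTB are above all controls, COX2 and ATP6 are below all controls, and the lowest point is ND4 in eIF3m replicate 1.

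Shares within the mitochondrial transcripts need no scaling. Those of ND1, ND5, ND6, CYTB, COX2 and ATP6 separated the groups in the same direction as under TMM. ND2 and ND4L overlapped under TMM but were lower as shares without overlap. ND2 took 6.578% to 6.726% in eIF3m libraries, against 6.728% to 6.758% in control libraries. ND4L took 0.703% to 0.753% in eIF3m libraries, against 0.757% to 0.807% in control libraries. COX3 and ND4, called under TMM, overlapped as shares. CYTB took 12.4%, 12.3% and 12.2% of mitochondrial counts in eIF3m libraries, against 11.1%, 11.0% and 11.1% in control libraries. COX2 took 8.60%, 8.30% and 8.26% in eIF3m libraries, against 10.1%, 9.80% and 10.1% in control libraries. The CYTB to COX2 ratio was 1.44, 1.48 and 1.47 with eIF3m siRNA, against 1.10, 1.12 and 1.10 with control siRNA, a difference of 32.6% between means of 1.47 ± 0.02 and 1.11 ± 0.01 (SD, n = 3 each). CYTB and COX2 are the mitochondrial genes with the lowest edgeR p among those higher and those lower. A gap between the groups in their ratio therefore follows from the choice of the pair, and the ratio is a description only. ND5 took 3.88% to 4.08% of mitochondrial counts in eIF3m libraries and 3.46% to 3.56% in control libraries, and ATP6 took 8.78%, 8.88% and 8.996% in eIF3m libraries, against 9.69% to 9.84% in control libraries. COX1, by contrast, held 36.2% to 36.6% in eIF3m libraries and 36.2% to 36.3% in control libraries, with overlapping groups.

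**Figure D4:**
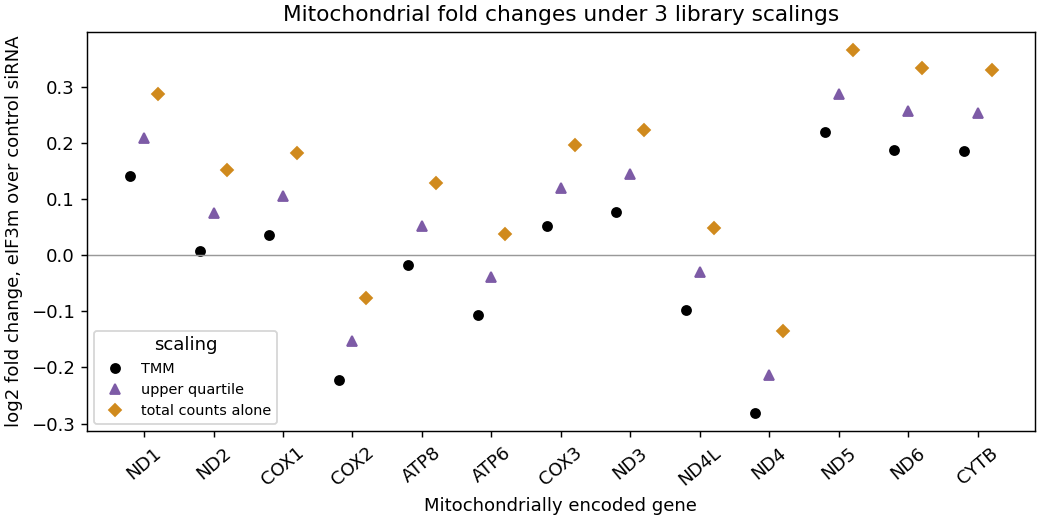
Log2 fold change, eIF3m siRNA over control siRNA, of the 13 mitochondrial genes under TMM, upper-quartile scaling and total counts alone. The scalings move all 13 values together; ND1, ND5, ND6 and CYTB stay above 0 and COX2 and ND4 below 0 in all 3, while ATP6, ATP8 and ND4L change sign.

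In complex I, the largest complex, 7 nuclear core subunits carry the flavin and iron-sulfur clusters. Of these, 1 was lower (14.3%, beside 21.2% of all genes): Ndufs8, which holds iron-sulfur clusters. It was at 62.9, 63.6 and 58.5 CPM in eIF3m libraries, against 74.1, 66.4 and 69.8 CPM in control libraries, a log2 fold change of -0.19 ± 0.06 (edgeR adjusted p = 0.0235). The groups did not overlap, but the call was lost with upper-quartile scaling, with total counts alone (-0.05) and without eIF3m replicate 3 (-0.15), control replicate 1 (-0.16) or control replicate 3 (-0.20). The other 6 core genes did not pass, and Ndufs3 had the highest of their log2 fold changes at 0.09. With total counts alone 3 of the 7 were higher and 0 lower, beside 4126 higher and 1684 lower of 12724 genes.

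Among the supernumerary complex I genes, 29 were tested, 3 were higher and 3 lower (10.3% each, beside 17.4% and 21.2% of all genes). The even split rested on TMM. Upper-quartile scaling gave 4 higher and 0 lower, beside 3015 and 2130 of 12724 genes. Total counts alone gave 8 higher and 0 lower, beside 4126 and 1684 of 12724 genes. Ndufb10, a membrane-arm subunit, was at 45.0, 42.0 and 44.0 CPM in eIF3m libraries, against 35.1, 30.0 and 33.1 CPM in control libraries. All 3 eIF3m libraries were above the controls, and Ndufb10 rose by 0.43 ± 0.08 (edgeR adjusted p = 6.41e-04), a call kept in each of 17 alternatives. Ndufa5, a subunit of the arm that reaches into the matrix, was at 68.5, 60.5 and 70.4 CPM with eIF3m siRNA, against 58.3, 55.1 and 58.3 CPM with control siRNA, and rose by 0.24 ± 0.06 (edgeR adjusted p = 0.00635). It lost its call only when counts were thinned to the smallest library. Ndufa11, a membrane subunit, passed at 0.21 ± 0.08 (edgeR adjusted p = 0.0438) with overlapping groups. It kept its call when eIF3m replicate 2 was left out and lost it without any other single library, with 0.12 without eIF3m replicate 1 and 0.06 on thinned counts.

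The 3 lower supernumerary genes were Ndufa8, Ndufc1 and Ndufb9. Ndufa8, a subunit on the intermembrane side, was at 29.4, 33.1 and 30.1 CPM in eIF3m libraries, against 35.7, 36.6 and 38.4 CPM in control libraries (log2 fold change -0.28 ± 0.08, edgeR adjusted p = 0.0144). Ndufc1, a small membrane subunit, was at 14.9, 13.7 and 13.8 CPM with eIF3m siRNA, against 17.4, 18.4 and 19.5 CPM with control siRNA (-0.37 ± 0.12, edgeR adjusted p = 0.0240). Neither overlapped between groups, and both calls were lost with upper-quartile scaling, as was that of Ndufb9 (-0.14). Single libraries ended them too: eIF3m replicate 1 or 3 or control replicate 3 for Ndufa8 (-0.28 to -0.25), eIF3m replicate 3 or control replicate 2 or 3 for Ndufc1 (-0.38 to -0.33), and eIF3m replicate 2 or 3 or control replicate 1 or 3 for Ndufb9 (-0.15 to -0.12). Ndufa4, which carries a complex I symbol but is now counted as a subunit of complex IV, did not pass (-0.13), and its paralogue Ndufa4l2 was untested at no more than 1.72 CPM.

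Of the 7 assembly factors of complex I, 1 was higher (14.3%, beside 17.4% of all genes). Ndufaf2, a chaperone of late complex I assembly, was at 12.4, 15.5 and 7.20 CPM in eIF3m libraries and 6.22, 7.53 and 6.64 CPM in control libraries. It passed at 0.69 ± 0.24 (edgeR adjusted p = 0.0322), with overlapping groups, and leaving out any 1 library other than eIF3m replicate 3 ended the call (0.52 to 0.77). The other 6 assembly factors did not pass, and the lowest log2 fold change was that of Ndufaf1 at -0.14.

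Complex II has no mitochondrial gene, and its 4 nuclear genes did not pass under TMM. Sdha, the flavoprotein that oxidises succinate, was at 70.3, 66.7 and 62.3 CPM in eIF3m libraries and 68.6, 73.0 and 69.8 CPM in control libraries (log2 fold change -0.08). The iron-sulfur subunit Sdhb was at -0.0039 and the membrane anchors Sdhc and Sdhd at 0.03 and 0.19. None of the 4 passed an unadjusted p of 0.05 in edgeR, DESeq2 or limma-voom, and 0 of 4 passed after adjustment in each. With total counts alone Sdhc and Sdhd were higher (0.18 and 0.33, edgeR adjusted p = 0.0101 and adjusted p = 0.0138), beside 4126 of 12724 genes. Sdha and Sdhb were then positive without passing. Cycs, the electron carrier cytochrome c, was at 72.1, 92.3 and 74.7 CPM in eIF3m libraries and 85.0, 83.2 and 78.4 CPM in control libraries, and did not pass (-0.10).

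In complex III, 3 of 9 nuclear genes were lower (33.3%, beside 21.2% of all genes) and the other 6 did not pass, with a median log2 fold change of -0.11, while the mitochondrial subunit CYTB was higher. Uqcrfs1 encodes the Rieske iron-sulfur protein, which takes electrons from ubiquinol. It was at 62.3, 55.6 and 64.8 CPM in eIF3m libraries, against 73.3, 73.5 and 72.5 CPM in control libraries. The groups did not overlap, and Uqcrfs1 fell by 0.24 on the log2 scale (SE 0.06, edgeR adjusted p = 0.00533). Uqcrh, the hinge protein by cytochrome c1, was at -0.24 ± 0.07 and the small subunit Uqcr11 at -0.23 ± 0.07, with edgeR adjusted p of 0.0175 and 0.0199. The Uqcrh call ended without control replicate 1 or 2 (-0.21 and -0.22), and the Uqcr11 call without eIF3m replicate 3 or control replicate 1 or 3 (-0.21 to -0.17). With upper-quartile scaling Uqcrfs1 was the 1 complex III gene still lower, beside 2130 of 12724 genes. On thinned counts Uqcrfs1 was at -0.15 and did not pass. With total counts alone the median turned to 0.04. Then 1 gene was higher and 0 lower, beside 4126 and 1684 of 12724 genes. Cyc1, cytochrome c1 itself, had the highest value at 0.04 and did not pass.

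Complex IV held the largest share of lower nuclear genes among the complexes: 6 of 13 tested genes were lower (46.2%, against 21.2% of all genes) and the other 7 did not pass, with a median log2 fold change of -0.13. The count was the same without eIF3m replicate 1. With upper-quartile scaling 4 were lower and 0 higher, beside 2130 and 3015 of 12724 genes. With total counts alone 4 were lower and 4 higher, beside 1684 and 4126 of 12724 genes. The gene called lower with the lowest p was Cox6a1, the widely expressed form of subunit 6A. It was at 527, 554 and 509.6 CPM in eIF3m libraries, against 693, 665 and 662 CPM in control libraries, and fell by 0.35 on the log2 scale (SE 0.04, edgeR adjusted p = 2.81e-06). Cox6a2, the heart and skeletal muscle form, was at 31.7, 26.9 and 25.6 CPM with eIF3m siRNA, against 40.5, 40.6 and 42.3 CPM with control siRNA, and fell by 0.53 on the log2 scale (SE 0.09, edgeR adjusted p = 3.24e-04). Both forms of subunit 6A were thus lower, with no overlap between groups for either. Cox6a2 made up 5.03% ± 0.56 of the counts of this pair in eIF3m libraries and 5.76% ± 0.24 in control libraries (SD, n = 3 each), and the groups overlapped.

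Cox4i1 encodes the common form of subunit 4, at which ATP is known to slow the enzyme. It was at 401, 416 and 367 CPM in eIF3m libraries, against 487, 504 and 499 CPM in control libraries, and fell by 0.33 on the log2 scale (SE 0.05, edgeR adjusted p = 3.18e-05). Cox7a2, the widely expressed form of subunit 7A, was at 41.5, 40.6 and 43.2 CPM with eIF3m siRNA, against 50.5, 58.6 and 56.9 CPM with control siRNA, and fell by 0.40 on the log2 scale (SE 0.07, edgeR adjusted p = 5.02e-04). The eIF3m libraries were below the controls for both genes. Cox4i1, Cox6a1 and Cox6a2 kept their call in each of 17 alternatives, and Cox7a2 lost it in 1 of the 17, thinned counts, where it was at -0.14 (adjusted p = 0.405, edgeR). Cox7a2l, a relative that joins complexes III and IV into supercomplexes, was at -0.15 ± 0.05 and Cox7c, a small subunit, at -0.17 ± 0.06 (edgeR adjusted p = 0.0193 and adjusted p = 0.0409), and both lost the call with upper-quartile scaling and without eIF3m replicate 3, control replicate 1 or control replicate 3 (-0.16 to -0.12 for Cox7a2l), Cox7c also without eIF3m replicate 2. Cox5b, the zinc-binding subunit, had the highest log2 fold change of the complex at 0.17 and did not pass, and Cox8a, at 217 to 229 CPM in eIF3m libraries and 217 to 227 CPM in control libraries, was at 0.01.

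Apart from Cox6a2, 6 complex IV genes, most of them forms known from particular tissues, were near the limit of detection. Cox7a1 and Cox8b, the muscle forms of subunits 7A and 8, reached at most 0.480 and 0.883 CPM in any library. Cox4i2, a form known from lung, reached 0.720 CPM, Cox6b2 and Cox8c, known from testis, reached 0.883 and 0.246 CPM, and Cox6c-ps1 was at 0. In these libraries 3 counts, taken as the floor, equalled 0.286 to 1.32 CPM, so differences in these genes were not detectable at this depth. Ndufs6 and Ndufa1, subunits of complex I, were also listed at no more than 0.883 CPM. Whether their low counts came from expression, from the annotation or from reads with several matches was not tested. These 6 complex IV genes, Ndufs6, Ndufa1 and Ndufa4l2 are the 9 members that did not pass the count filter, and Cox6b1 has no row used here. Cox7b2, a paralogue of the common Cox7b, passed the filter; it was at 2.10, 3.97 and 2.28 CPM in eIF3m libraries and 1.84, 3.57 and 2.34 CPM in control libraries, and did not pass (-0.07).

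For complex IV both genomes can be set side by side. The summed nuclear genes of the complex were at 1988, 1989 and 1864 CPM in eIF3m libraries, against 2283, 2248 and 2239 CPM in control libraries, 13.7% lower in the mean. As a share of counts the sum was 0.208%, 0.209% and 0.197% in eIF3m libraries, against 0.217%, 0.214% and 0.212% in control libraries. Cox6a1 and Cox4i1, the pair left out here after their values were seen, carried this direction: the sum of the other complex IV genes was 0.111%, 0.107% and 0.104% of counts in eIF3m libraries, against 0.105%, 0.103% and 0.102% in control libraries, higher by 3.98% in the mean with overlapping groups. Under TMM that remainder was at 1022 ± 36.3 CPM with eIF3m siRNA and 1087 ± 13.7 CPM with control siRNA (SD, n = 3 each). The summed COX1, COX2 and COX3 were at 40313, 39445 and 40903 CPM with eIF3m siRNA, against 39628, 39519 and 41502 CPM with control siRNA. The nuclear groups were separated and the mitochondrial groups overlapped; these are sums over members and carry no test.

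In complex V, 17 genes were tested, of which 4 were lower (23.5%, beside 21.2% of all genes) and 1 higher (5.88%, beside 17.4%). The set was taken by the prefix Atp5, so these shares include Atp5s and Atp5sl. They are now named Dmac2l and Dmac2, not as ATP synthase subunits, and neither passed. With upper-quartile scaling 1 was lower and 2 higher, beside 2130 and 3015 of 12724 genes. With total counts alone 1 was lower and 5 higher, beside 1684 and 4126 of 12724 genes. Atp5g1 is 1 of 3 nuclear genes that encode the same mature c subunit, the protein that forms the rotor ring, behind different import sequences. It was at 109, 117 and 104 CPM in eIF3m libraries, against 143, 140.4 and 139 CPM in control libraries, with no overlap. Atp5g1 fell by 0.37 on the log2 scale (SE 0.05, edgeR adjusted p = 4.71e-05), a call kept in each of 17 alternatives. Atp5g2 was at 158, 178 and 167 CPM with eIF3m siRNA and 168, 186 and 168 CPM with control siRNA, and Atp5g3 at 117, 110.0 and 110.4 CPM with eIF3m siRNA and 110, 120 and 119 CPM with control siRNA. Neither passed, at -0.06 ± 0.06 and -0.04 ± 0.05 (edgeR adjusted p = 0.419 and adjusted p = 0.579), and their signs turned under other scalings. Free of scaling, Atp5g1 made up 28.3%, 28.9% and 27.3% of the counts of the 3 genes in eIF3m libraries, against 34.0%, 31.5% and 32.6% in control libraries. The 3 genes together were 9.52% lower under TMM (390 ± 12.3 CPM in eIF3m libraries and 431 ± 13.3 CPM in control libraries, SD, n = 3 each) and took 0.0410% of counts in both groups without scaling.

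**Figure D5:**
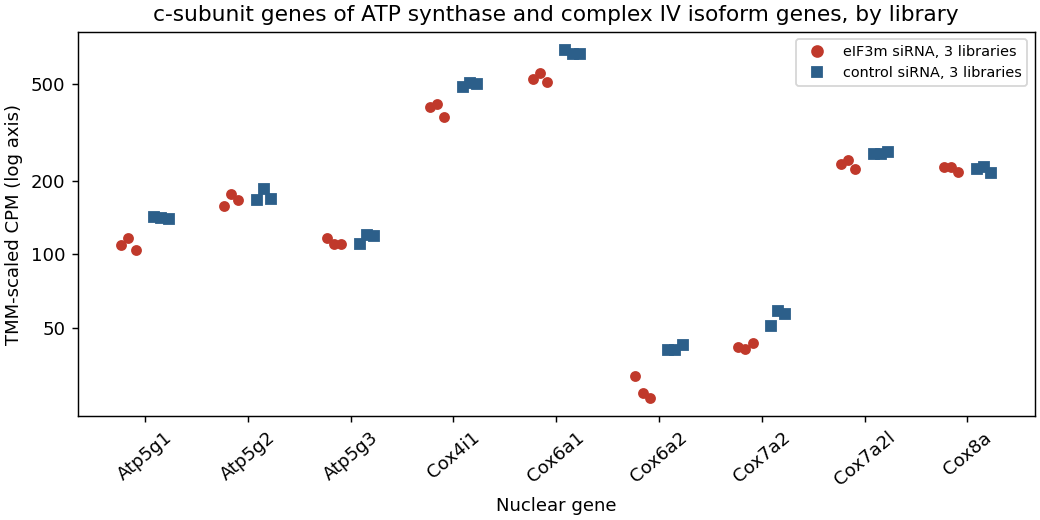
TMM-scaled CPM on a log axis of the 3 c-subunit genes of ATP synthase and of complex IV subunit genes, for 3 eIF3m siRNA and 3 control siRNA libraries. Atp5g1, Cox4i1, Cox6a1, Cox6a2, Cox7a2 and Cox7a2l are lower in every eIF3m library than in every control library, and Atp5g2, Atp5g3 and Cox8a overlap between groups; Cox7a2l did not pass with upper-quartile scaling.

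Atp5j2, Atp5d and Atp5a1 were the other 3 lower genes of complex V. Atp5j2 encodes the membrane subunit f, Atp5d the delta subunit of the central stalk and Atp5a1 the alpha subunit of the catalytic head. Their log2 fold changes were -0.15 ± 0.05, -0.15 ± 0.05 and -0.13 ± 0.05 (edgeR adjusted p = 0.0320, adjusted p = 0.0387 and adjusted p = 0.0400). All 3 lost their call with upper-quartile scaling and without eIF3m replicate 3, control replicate 1 or control replicate 3 (-0.17 to -0.097); so did Atp5j2 without eIF3m replicate 1, Atp5d without eIF3m replicate 2 or control replicate 2, and Atp5a1 without control replicate 2. Atp5j2 and Atp5d lay at -0.0084 and -0.0073 with total counts alone, where Atp5a1 turned to 0.02. Atp5j, coupling factor 6 of the outer stalk, was higher at 0.16 ± 0.06 (edgeR adjusted p = 0.0478), with 83.8, 84.3 and 73.9 CPM in eIF3m libraries and 71.6, 70.3 and 73.0 CPM in control libraries. Its groups did not overlap, and leaving out any 1 library other than eIF3m replicate 3 ended the call (0.11 to 0.17). Atp5f1, the b subunit of the outer stalk, rested on 1 library: it was at 1.14, 14.6 and 1.32 CPM in eIF3m libraries and 2.12, 1.15 and 1.11 CPM in control libraries. Its log2 fold change of 1.35 ± 0.78 did not pass (edgeR adjusted p = 0.204) and was -0.23 without eIF3m replicate 2.

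Many nuclear members have processed copies elsewhere in the genome, and the sources used here do not say how the counting treated reads with several matches. A RefSeq table of rat assembly GRCr8 lists at least 1 pseudogene named after 44 of the 96 nuclear members, among them Cox6a1, Cox4i1, Cox7a2, Cox7c, Atp5g1, Atp5g2, Atp5j, Ndufa5, Ndufb10 and Ndufaf2. Values of these genes are uncertain to that extent.

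Promoter sequences were set beside the calls because nuclear respiratory genes are known targets of nuclear respiratory factor 1 (NRF1) and of the ETS-family factor GABPA. RefSeq promoter windows on assembly GRCr8, from 250 bases before to 50 bases after the start, were found for 82 of the 96 nuclear members. The core of an NRF1 element, spelled GCGCA, any base, then GCGC, was searched on both strands and was found in 16 of the 82 windows (19.5%), against 4.25% of all 33469 windows in the table. The letters CCGGAAG, the core of an ETS element, stood in 20 of the 82 (24.4%), against 8.75% of all windows. Matches of each motif were counted apart, whether or not they overlapped the other. The windows of members had a median GC content of 56.7%, against 51.7% in all windows, which was not adjusted for.

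The NRF1 letters were in 0 of 13 windows of genes called lower, 2 of 5 of genes called higher and 13 of 57 of genes tested but not called. The ETS letters were in 5 of 13, 1 of 5 and 13 of 57 in the same order. These are descriptions of windows with no test, and a missing match says only that the letters are not in that window. Cox6a1 is not among the windows.

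The windows of the 3 c-subunit genes are shown because their values differed in the call. The Atp5g1 window, now named Atp5mc1, at chr10:81523296-81523595 on the minus strand, held neither motif, while those of Atp5g2 (Atp5mc2, chr7:135678169-135678468, minus strand) and Atp5g3 (Atp5mc3, chr3:79220615-79220914, minus strand) each held the NRF1 letters once. Most windows of genes not called lacked those letters too, and no link between letters and calls was tested. The windows of Cox4i1 (chr19:65630133-65630432, plus strand), Cox6a2 (chr1:192219667-192219966, minus strand) and Cox7a2 (chr8:89601100-89601399, minus strand) are shown as those of the complex IV genes that kept their call under both other scalings and have a window. Cox4i1 held the ETS letters 2 times and Cox7a2 1 time, while Cox6a2 held neither motif, as did Cox7a2l and Cox7c, the other lower genes of the complex that have a window. Sequences are written 5′ to 3′ on the gene's strand, with motif matches in capitals.
Atp5g1: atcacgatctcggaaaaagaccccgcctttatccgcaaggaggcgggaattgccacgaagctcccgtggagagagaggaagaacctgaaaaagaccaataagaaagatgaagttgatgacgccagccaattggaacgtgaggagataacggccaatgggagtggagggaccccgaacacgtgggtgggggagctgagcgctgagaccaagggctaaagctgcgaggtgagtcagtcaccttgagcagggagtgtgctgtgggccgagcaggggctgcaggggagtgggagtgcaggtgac
Atp5g2: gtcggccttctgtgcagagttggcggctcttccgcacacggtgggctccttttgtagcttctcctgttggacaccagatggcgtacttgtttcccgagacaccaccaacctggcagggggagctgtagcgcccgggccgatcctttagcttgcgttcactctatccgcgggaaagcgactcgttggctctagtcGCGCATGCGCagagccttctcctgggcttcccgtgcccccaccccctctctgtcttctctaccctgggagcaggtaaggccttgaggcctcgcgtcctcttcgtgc
Atp5g3: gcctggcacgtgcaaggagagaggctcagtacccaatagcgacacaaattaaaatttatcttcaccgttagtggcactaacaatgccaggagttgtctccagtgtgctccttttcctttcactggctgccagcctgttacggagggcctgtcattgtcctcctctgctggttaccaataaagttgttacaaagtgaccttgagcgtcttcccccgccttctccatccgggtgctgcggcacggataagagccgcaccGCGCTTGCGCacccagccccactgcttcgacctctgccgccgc
Cox4i1: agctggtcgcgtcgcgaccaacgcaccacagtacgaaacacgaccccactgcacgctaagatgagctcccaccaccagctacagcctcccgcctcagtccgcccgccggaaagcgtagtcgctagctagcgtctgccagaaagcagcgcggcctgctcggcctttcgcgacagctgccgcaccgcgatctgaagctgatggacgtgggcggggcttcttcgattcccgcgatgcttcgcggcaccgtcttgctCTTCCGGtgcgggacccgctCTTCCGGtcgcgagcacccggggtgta
Cox6a2: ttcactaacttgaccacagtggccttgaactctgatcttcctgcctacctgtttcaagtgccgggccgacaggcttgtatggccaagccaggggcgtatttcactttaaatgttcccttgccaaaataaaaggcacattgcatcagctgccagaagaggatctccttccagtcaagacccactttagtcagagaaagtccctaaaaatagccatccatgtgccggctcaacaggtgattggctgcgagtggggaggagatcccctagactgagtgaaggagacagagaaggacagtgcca
Cox7a2: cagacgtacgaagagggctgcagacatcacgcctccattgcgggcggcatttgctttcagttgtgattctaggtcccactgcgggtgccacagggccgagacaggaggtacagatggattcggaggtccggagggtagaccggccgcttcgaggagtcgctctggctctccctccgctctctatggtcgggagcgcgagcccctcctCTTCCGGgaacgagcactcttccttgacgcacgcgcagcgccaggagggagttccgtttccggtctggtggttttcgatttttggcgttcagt

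Genes that make, process or regulate respiratory transcripts were counted from lists drawn up apart from the members, to be read beside the 17.4% higher and 21.2% lower among all genes. Of 15 tested genes of mitochondrial DNA maintenance and transcription, Polrmt, the RNA polymerase of mitochondria, passed; it was at 48.5, 49.0 and 47.3 CPM in eIF3m libraries, against 38.6, 44.4 and 42.3 CPM in control libraries (log2 fold change 0.20 ± 0.07, edgeR adjusted p = 0.0413). The median of that list was 0.20. Polrmt lost its call without any 1 library other than control replicate 2 (0.15 to 0.22), with DESeq2, with no filter and with the replicate block, and was at 0.02 on thinned counts. Of 17 genes of mitochondrial RNA processing and stability, Fastk, a mitochondrial RNA-binding protein, passed at 0.27, with a list median of 0.06, and did not pass without eIF3m replicate 1 (0.17). Of 10 tested nuclear regulators of respiratory genes, 2 were higher: Nrip1, a corepressor of oxidative metabolism, at 0.48 ± 0.08 (edgeR adjusted p = 1.26e-04) and Gabpb1, the partner subunit of GABPA, at 0.32 ± 0.11 (edgeR adjusted p = 0.0296). Nrip1 was at 62.6, 68.0 and 69.8 CPM with eIF3m siRNA, against 42.4, 49.9 and 50.4 CPM with control siRNA, without overlap. Gabpb1 kept its call without eIF3m replicate 1 and lost it without any other single library (0.24 to 0.34), with DESeq2 and on thinned counts (0.21).

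Assembly factors not named Nduf had 4 of 39 tested genes lower (10.3%, a smaller share than the 21.2% of all genes), and the other 35 did not pass. Among the 4 were Cox14, Pet100 and Coa6, each known as an assembly factor of complex IV, with log2 fold changes of -0.40, -0.47 and -0.88; the list holds further factors of that complex, which were not counted apart. Pet100 and Coa6 lost their calls with total counts alone (-0.33 and -0.74), Pet100 also on thinned counts, and Coa6 with DESeq2, with no filter and without any 1 library other than eIF3m replicate 3 (-0.95 to -0.59). Cox14 was at 38.5, 32.2 and 35.3 CPM in eIF3m libraries, against 53.2, 44.3 and 45.9 CPM in control libraries. Mitochondrial ribosomal proteins translate the mRNAs of mitochondrial DNA. They split evenly, with 7 higher and 7 lower of 72 tested (9.72% each, below the 17.4% and 21.2% of all genes). Their median was 0.00. Mrps9, Mrps22 and Mrpl43 were higher at 0.44, 0.47 and 0.23, and Mrpl54, Mrps18b and Mrps12 lower at -0.40, -0.36 and -0.37; Mrps12 lost its call with total counts alone and on thinned counts (-0.22 in both). Without eIF3m replicate 1 Mrps22 and Mrpl43 did not pass (0.35 and 0.23), nor did Mrps22 without control replicate 3 (0.40) or Mrpl43 without control replicate 1 or 2 (0.22 and 0.19).

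The citric acid cycle, which feeds NADH and succinate to complexes I and II, had 3 of 13 tested genes higher and 3 lower (23.1% each, beside 17.4% and 21.2% of all genes). Fh, fumarase, the enzyme after complex II, was at 104, 105 and 108 CPM in eIF3m libraries, against 79.6, 79.9 and 77.8 CPM in control libraries, and rose by 0.42 ± 0.05 (edgeR adjusted p = 9.94e-06). Cs and Idh3g, citrate synthase and a subunit of NAD-dependent isocitrate dehydrogenase, were higher at 0.15 and 0.19, and lost their calls without most single libraries (0.10 to 0.15 for Cs without 1 of 4, 0.14 to 0.22 for Idh3g without 1 of 5). Dld, a subunit shared by ketoacid dehydrogenases, and Idh2, the NADP-dependent isocitrate dehydrogenase, were among the lower genes at -0.19 and -0.20. Both lost the call with upper-quartile scaling (-0.12 and -0.13) and with total counts alone (-0.04 and -0.05). In coenzyme Q synthesis and handling, 1 of 11 tested genes was higher and 1 lower (9.09% each), and they were the paralogues Coq10b (0.27 ± 0.07, edgeR adjusted p = 0.00588) and Coq10a (-0.72 ± 0.12, edgeR adjusted p = 1.30e-04), both ubiquinone-binding proteins. Coq10a was at 13.9, 11.9 and 13.7 CPM in eIF3m libraries, against 22.2, 22.1 and 22.6 CPM in control libraries. On thinned counts neither passed, at 0.19 for Coq10b and -0.49 for Coq10a.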

How the data were processed

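RNA was measured in 6 rat libraries, 3 with eIF3m siRNA and 3 with control siRNA, grouped by their labels. The authors deposited 1 table per library of raw gene counts, not normalised. Per the submitters' processing notes, Trimmomatic 0.40, HISAT2 2.2.1, featureCounts, DESeq2, limma and the build rn6 were used. The sources used here do not give the annotation, the strand setting or the treatment of reads with several matches, which leaves genes with close copies or overlaps uncertain. A SMARTER mRNA kit was used on total RNA, per the labels' protocols.

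Of 31038 rows, 27 whose symbols had become calendar dates (0.203% to 0.216% of each library's counts) were left out of totals and tests. The counts entered edgeR 4.0.16 in R 4.3.3: filterByExpr at a minimum count of 10 and total of 15 (12724 genes kept), TMM scaling, a two-sided quasi-likelihood F-test with no covariate, and Benjamini-Hochberg adjustment over all genes tested, with calls at 0.05. The step was tested on simulated data. SEs are those of the fitted coefficient. TMM factors were 1.05 to 1.06 in eIF3m libraries and 0.948 to 0.953 in control libraries. Sums and ratios over members carry no p-value; 3 libraries against 3 cannot go below an exact permutation p of 0.1. Floors of 3 counts cover counting error only. Replicates of a group differed by more than counting noise (chi-square per degree of freedom 1.78 to 8.69), so no pair was taken for copies of one library; this does not show that they came from separate cultures.

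Alternatives were other scalings, filters, tools (DESeq2 1.42.0, limma-voom of limma 3.58.1), robust dispersion, thinning to the smallest library, a replicate block and leaving out each library. Members, lists and markers were chosen with earlier results of these data known. Genes named are Eif3m, the 13 mitochondrial genes, Sdha to Sdhd, Cyc1, Cycs, listed isoform pairs, in each nuclear set up to 4 called members per direction with the lowest p and the 2 with extreme fold changes, and in each pathway list up to 3 called members per direction. A gene that this rule takes is not reported here. Cox7c, Atp5s, Atp5sl and the members that failed the filter were named after their values were seen. Promoters are RefSeq windows of GRCr8, matched by symbol for 79 members and by synonym for 17; the files' build is rn6, so these coordinates are not those of the count tables.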

Additional observations from a re-analysis of the deposited data

How the results depend on the processing

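With no scaling factors all genes had 4126 higher and 1684 lower, nuclear members 24 and 5, mitochondrial members 9 and 1, and the log2 ratios of summed levels were 0.17 (mitochondrial) and 0.048 (nuclear, reversed from -0.10). With upper-quartile scaling nuclear members had 6 lower, mitochondrial members 1 lower, and the summed levels were 0.098 and -0.029. Thinned to the smallest library, all genes had 1356 higher and 1774 lower and nuclear members 3 higher and 4 lower. Nuclear members had 3 higher with DESeq2, with limma-voom and with the replicate block. Leaving out single libraries gave 2 to 6 nuclear members higher and 7 to 19 lower; the lowest counts of lower members, 7, 8 and 7, came without eIF3m replicate 3, control replicate 1 and control replicate 3. The mitochondrial over nuclear ratio stayed at 0.09 to 0.15 (log2) in these runs.

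By replicate number, deviations of same-numbered libraries correlated at 0.03, -0.0054 and 0.0077. Those of differently numbered libraries correlated at -0.039 to 0.027. These values do not show whether same-numbered libraries were prepared together. With the number as a block, all genes had 2123 higher and 2632 lower, nuclear members 3 and 16, and mitochondrial members 6 and 3.

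Signs turned, all but 3 in genes that had not been called. With no scaling factors these were ND4L (0.048), ATP6 (0.038), ATP8 (0.13), Sdha (0.059), Sdhb (0.14), Cycs (0.049), Ndufb9 (0.0015), Ndufaf1 (0.0046), Atp5a1 (0.018), Ndufa4 (0.019), Atp5g2 (0.081) and Atp5g3 (0.10); ATP6, Ndufb9 and Atp5a1 had been called. With upper-quartile scaling they were ATP8 (0.051), Sdhb (0.064), Atp5g2 (0.0047) and Atp5g3 (0.026), and with relative log expression size factors Sdhb (0.00022). A minimum count of 50 turned ATP8 (0.0021) and Sdhb (0.016), limma-voom turned ATP8 (0.0032) and Sdhb (0.0037), no filter turned ND2 (-0.012) and Cox8a (-0.0074), and thinning turned ATP8 (0.063), Ndufaf1 (0.22) and Atp5g2 (0.085). Without single libraries ND2 ranged from -0.016 to 0.027, ATP8 from -0.039 to 0.021, Sdhb from -0.056 to 0.033, Ndufaf1 from -0.24 to 0.020, Atp5f1 from -0.23 to 2.04 (lowest without eIF3m replicate 2) and Cox8a from -0.013 to 0.038. The cause was not tested. Over all alternatives, the named members gave 633 values on the same side of the threshold with the same sign, 112 that lost the call, 30 that gained one and 38 that turned; named genes of the pathway lists gave 297, 58, 0 and 0.

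Promoter matches within the 150 bases nearest the start were 15.9% and 18.3% of member windows. Depth was lowest in eIF3m replicate 2, where 3 counts were worth 1.32 CPM.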
